A study of Mus musculus with 6 samples.

Results

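The genes described here encode the machinery of oxidative phosphorylation, from both the nuclear and the mitochondrial genome. They were chosen by name among the protein-coding genes of the deposited table: symbols that begin with Nduf, Uqcr, Atp5, Cox4, Cox5, Cox6, Cox7, Cox8 or mt-, together with Sdha, Sdhb, Sdhc, Sdhd, Cyc1 and Cycs. The rule found 109 of 54532 genes, of which 96 are nuclear and 13 mitochondrial. A total of 103 members (90 nuclear and all 13 mitochondrial) reached 1 FPKM (fragments per kilobase of gene, scaled to the size of the library) in at least 3 of the 6 libraries and were tested. The other 6 were Ndufa4l2, Cox4i2, Cox7b2, Cox8b, Cox8c and a second gene entry named Atp5o, which was listed at 0 in all 6 libraries.

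RNA was sequenced from bone marrow of mice at post-transplantation day 100. Marrow progenitors of male donors had been transduced with a retrovirus carrying JAK3 M511I, an activated Janus kinase, and GFP, and given to irradiated male C57BL/6 recipients, so both groups carry the kinase and grow in hosts that may retain their own cells. The 3 KO libraries have the genotype Vav1-Cre; Phf6 fl/y, in which Cre under the blood-cell promoter of Vav1 removes floxed exons of Phf6, a chromatin-associated protein. The 3 WT libraries have Phf6 fl/y without Cre. The genotype labels spell the gene Phf6, Phf7 and Phf8 in replicates 1, 2 and 3 of each group, so that WT 2 is labelled Phf7, and all were read as Phf6 because the series names no other target. The labels do not say whether each library is a separate mouse or whether leukemic cells were sorted, so p-values measure the spread between these libraries, which may be technical in part.

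Oxidative phosphorylation passes electrons from NADH and succinate through complexes I, II, III and IV of the inner mitochondrial membrane to oxygen, and complex V (ATP synthase) uses the resulting proton gradient to make ATP. Mitochondrial DNA encodes the hydrophobic core subunits of complexes I, III, IV and V, whereas every subunit of complex II, cytochrome c and all the assembly factors come from nuclear genes. Building a complex therefore draws on transcripts made in separate compartments, by separate polymerases.

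Read numbers, recovered from FPKM and gene length, totalled between 13015823 and 18235095 per library. The library labelled WT 2 stood apart from the other 5. Genes shorter than 1000 bases took 17.1% of its reads against 3.11% to 5.01% elsewhere, and its FPKM summed to 897352 against 244936 to 329893. The library size implied by the deposited FPKM was 0.645 of the recovered reads in WT 2 and between 1.01 and 1.21 of them elsewhere. The main counts are therefore given with and without WT 2. Phf6 itself measured 7.47, 3.67 and 8.02 FPKM in WT 1, WT 2 and WT 3, and 6.73, 5.50 and 5.11 in KO 1, KO 2 and KO 3. Its gene-level value includes exons outside the deleted part and so does not check the labels.

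Markers of several other marrow cell types differed between the groups, or between WT 2 and the other libraries. All 12 neutrophil markers (S100a8, S100a9, Camp, Ngp and others) were called lower in KO, and their summed FPKM was between 6903 and 95724 in WT and between 94.3 and 292 in KO. The sum of 9 erythroid markers was 68106 in WT 2 and between 16.9 and 531 in the other libraries. Monocyte and macrophage markers summed to between 602 and 4998 in WT and between 12.05 and 29.3 in KO, and B cell markers to 1074 in WT 2, 11.3 and 17.2 in WT 1 and WT 3, and at most 1.39 in KO. With all libraries 0 of 8 tested erythroid and 0 of 3 tested B cell markers were called. Without WT 2, 1 erythroid marker was called higher and 3 lower, and 3 B cell markers lower. Most of these B cell markers passed the filter on low values only through WT libraries, so their calls add nothing to the sums. Over all genes tested, 13.1% were called higher and 13.3% lower with all libraries, and 26.8% and 25.3% without WT 2. Of 5 tested NK cell markers, 4 were called lower and 1 higher with and without WT 2. The 10 T cell markers were present in every library, between 933 and 2096 in WT and between 1109 and 1206 in KO. With all libraries 1 of these 10 was called lower, and without WT 2, 3 were called higher and 3 lower. The part of these cells in the results below was not tested, and in bulk marrow fewer cells of a type and less RNA per cell cannot be told apart.

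**Figure D1:**
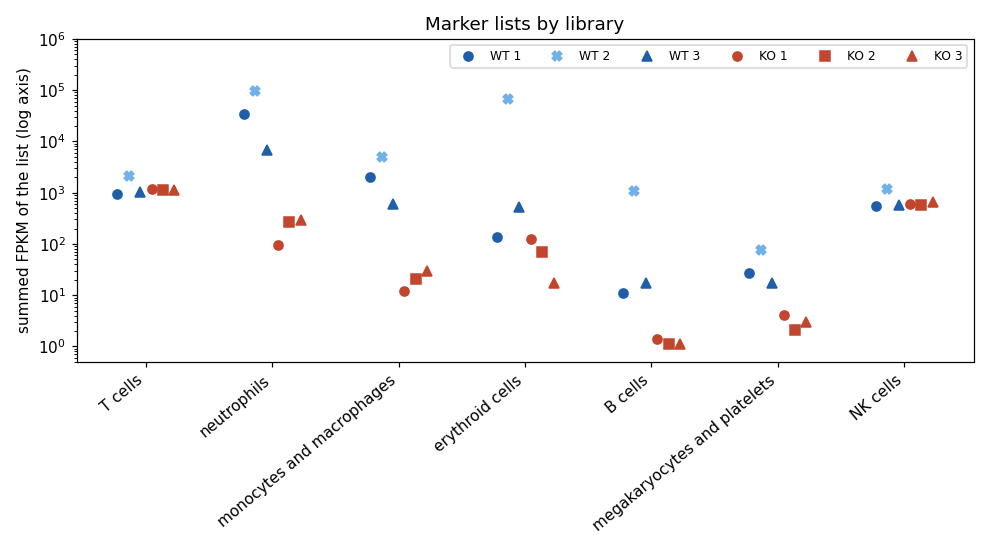
Summed FPKM (log axis) of the markers of each cell type in each library, one symbol per library. Neutrophil markers are between 6903 and 95724 in WT and at most 292 in KO, and the erythroid sum of WT 2 is 68106.

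With all 6 libraries, 1 of the 103 members was called higher in KO and 0 lower (limma on log2(FPKM + 1), Benjamini-Hochberg adjusted p under 0.05 over 13393 genes). Over all genes tested, 13.1% were called higher and 13.3% lower. At an unadjusted p under 0.05, 3 members were higher and 0 lower. The member called was Uqcrc2 (ENSMUSG00000030884, chr7:120635176-120659524, GRCm38), a core subunit of complex III. It measured 31.5, 18.4 and 29.1 FPKM in WT 1, WT 2 and WT 3, and 48.7, 53.9 and 52.7 in KO 1, KO 2 and KO 3. The groups did not overlap, and the log2 fold change was 0.98 ± 0.28 (SE, n = 3 and 3, limma adjusted p = 0.0425). That call is lost, at adjusted p between 0.063 and 0.158, when any library other than WT 2 is left out.

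Nuclear members differed more between WT 2 and the other WT libraries than between groups. Their summed FPKM was 3043, 15873 and 2776 in WT 1, WT 2 and WT 3, and 4242, 4941 and 4761 in KO 1, KO 2 and KO 3. WT 2 was thus 5.45 times the mean of WT 1 and WT 3, while the KO mean of 4648 ± 363 (SD, n = 3) was 1.60 times it. WT 2 was the highest library for 82 of the 90 nuclear members, against 30.2% of all genes tested. As a share of all recovered reads, nuclear members took 0.530% and 0.513% in WT 1 and WT 3, 1.44% in WT 2 and between 0.857% and 1.03% in KO.

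**Figure D2:**
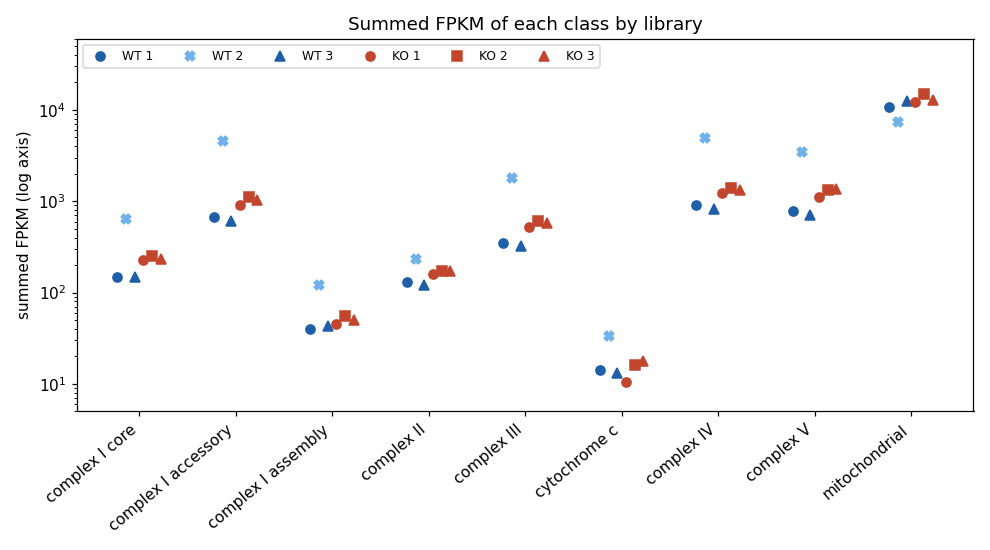
Summed FPKM (log axis) of each class of members in each library, one symbol per library. In nuclear classes other than cytochrome c the KO libraries lie above WT 1 and WT 3 and below WT 2, and among mitochondrial members WT 2 is the lowest, at 7446.

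Against WT 1 and WT 3 alone, 65 of 103 members were called higher and 0 lower, where 26.8% of all genes tested were called higher and 25.3% lower. These 65 were 62 of 90 nuclear and 3 of 13 mitochondrial members. The median log2 fold change was 0.70 over nuclear members, 0.39 over mitochondrial members and 0.04 over all genes tested. All 3 KO libraries lay above both WT 1 and WT 3 for 84 members and below both for 5. Over all genes those shares were 37.7% and 34.4%. With WT 2 included, all KO libraries lay above every WT library for 9 members and below for 4, against 26.2% and 22.9% of all genes. Here the WT spread rests on 2 libraries, and leaving out 1 further library gave between 39 and 64 calls, with 39 when WT 3 was left out.

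**Figure D3:**
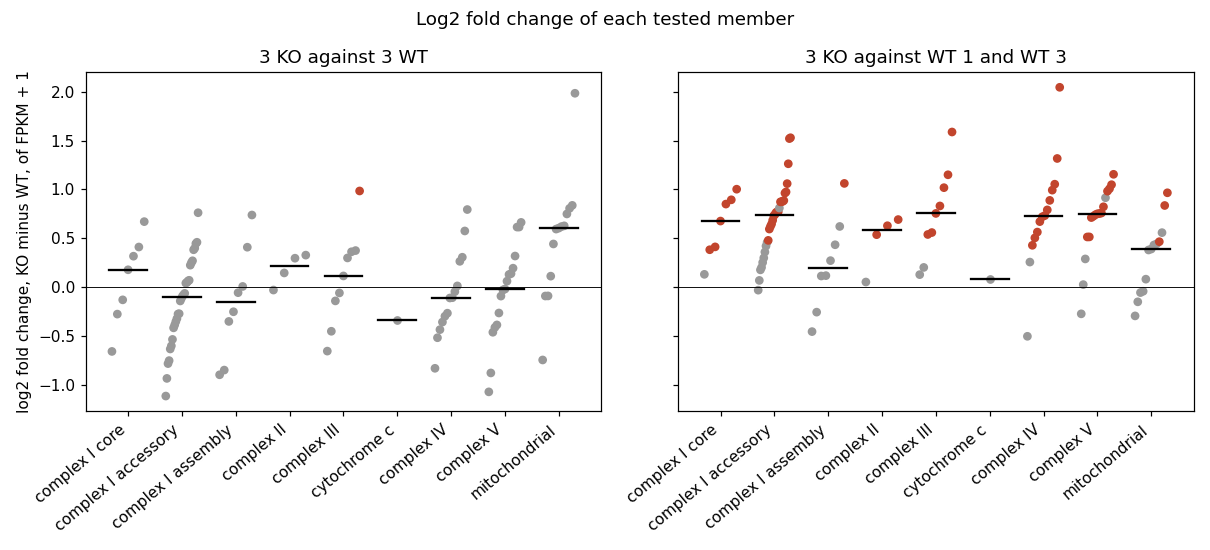
Log2 fold change (KO minus WT, FPKM + 1) of each tested member by class, with all libraries on the left and without WT 2 on the right. Red points are called (adjusted p under 0.05), grey points are not, and bars are class medians. The left panel has 1 called member and the right 65.

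In complex I, which oxidizes NADH, 26 of 37 tested subunits rose against WT 1 and WT 3, with a median log2 fold change of 0.73. Of all genes tested 26.8% were called higher against these WT libraries, and this share stands beside each class count that follows. With WT 2 included 0 of the 37 were called. Among the 7 nuclear core subunits, which carry the flavin and the iron-sulfur clusters, 6 rose. Ndufv1, which holds the flavin, measured 19.6, 90.1 and 19.6 FPKM in WT 1, WT 2 and WT 3, and 34.9, 40.7 and 36.7 in KO 1, KO 2 and KO 3. WT 2 was above every KO library and the other WT libraries were below. Its log2 fold change was 0.89 ± 0.12 without WT 2 (adjusted p = 0.0024) and 0.18 ± 0.60 with it (adjusted p = 0.857). Ndufs1, the largest core subunit, was lowest in WT 2, at 3.85 FPKM against 7.13 and 7.45 in WT 1 and WT 3 and between 9.67 and 10.5 in KO.

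Of 30 tested accessory subunits of complex I, 20 rose against WT 1 and WT 3. The largest differences were in Ndufb9 and Ndufc2, subunits of the membrane arm, at 1.53 ± 0.15 and 1.52 ± 0.19 on the log2 scale. Ndufb9 measured 10.1, 107 and 8.14 FPKM in WT 1, WT 2 and WT 3, and 25.8, 30.7 and 27.7 in KO 1, KO 2 and KO 3. KO was about 3.08 times the mean of WT 1 and WT 3 and far below WT 2. Other accessory subunits did not differ by the test: Ndufa13, also known for its role in cell death, had a log2 fold change of 0.07 ± 0.14 (adjusted p = 0.699). Ndufa4, which is named for complex I but is now placed in complex IV, was at 0.46 ± 0.20 (adjusted p = 0.102). Ndufb9, Ndufv1 and, below, Atp5b and Ndufs5 are outside the rule for named genes and were picked after their values were seen.

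The Ndufaf assembly factors build complex I but are not part of it. Against WT 1 and WT 3, 1 of the 8 was called higher, where 26.8% of all genes tested were, and with all libraries 0 were called. The 1 called was Ndufaf1, at 4.27, 9.75 and 4.73 FPKM in WT 1, WT 2 and WT 3 and 9.37, 10.5 and 11.6 in KO 1, KO 2 and KO 3. Its log2 fold change was 1.06 ± 0.15 without WT 2 (adjusted p = 0.0026) and 0.74 ± 0.33 with it (adjusted p = 0.16). Without WT 2 the class median was 0.20, and Ndufaf5, which modifies an arginine of a core subunit, had the lowest value, -0.45 ± 0.17 (adjusted p = 0.0728). Whether the assembly factors differ from the subunits was not tested.

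Complex II links the chain to the citric acid cycle as succinate dehydrogenase. Its membrane anchors Sdhc and Sdhd and its iron-sulfur subunit Sdhb rose against WT 1 and WT 3, by 0.63 ± 0.12, 0.54 ± 0.13 and 0.69 ± 0.14 (adjusted p = 0.00815, 0.0157 and 0.00878). With all libraries none of the 3 was called (adjusted p between 0.443 and 0.98). The catalytic flavoprotein Sdha was not called, at 43.7, 36.7 and 45.8 FPKM in WT 1, WT 2 and WT 3 and 44.7, 46.4 and 48.6 in KO 1, KO 2 and KO 3. Its groups overlapped without WT 2, with a log2 fold change of 0.06 ± 0.11 (adjusted p = 0.705).

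In complex III, which passes electrons from ubiquinol to cytochrome c, 7 of 9 members rose against WT 1 and WT 3. Of these 9 members 1, Uqcrc2, was called with all libraries. Uqcr11, a small subunit, had the largest difference, at 31.6, 327 and 20.4 FPKM in WT 1, WT 2 and WT 3 and 69.3, 92.5 and 75.2 in KO 1, KO 2 and KO 3. The log2 fold change was 1.59 ± 0.22 without WT 2 (adjusted p = 0.00262) and 0.38 ± 0.99 with it (adjusted p = 0.816). The electron-carrying subunits Uqcrfs1, the Rieske protein, and Cyc1, cytochrome c1, rose by 0.56 ± 0.11 and 0.83 ± 0.17 (adjusted p = 0.00816 and 0.0101). Uqcrc1, the partner of Uqcrc2, was at 0.13 ± 0.14 (adjusted p = 0.467), and the mobile carrier Cycs at 0.08 ± 0.24 (adjusted p = 0.791).

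Complex IV, cytochrome c oxidase, reduces oxygen, and 12 of its 14 tested nuclear members rose against WT 1 and WT 3. Of the same 14, 0 were called with all libraries. Complex IV has tissue isoforms. Cox6a2, the isoform known from heart and skeletal muscle, measured 0.762, 18.4 and 0.190 FPKM in WT 1, WT 2 and WT 3 and 4.03, 4.20 and 7.12 in KO 1, KO 2 and KO 3. It had the largest log2 fold change of the tested members without WT 2, 2.04 ± 0.29 (adjusted p = 0.00269). With all libraries it was not called (0.80 ± 1.02, adjusted p = 0.616). The FPKM of the 8 stromal and muscle markers summed to between 5.80 and 11.4 in WT and to between 17.2 and 18.3 in KO. WT 2, the highest library for Cox6a2, was below every KO library in this sum. Nearly all of that sum was the endothelial and leukocyte gene Pecam1, the 1 tested marker of the list, which rose (1.16, adjusted p = 0.0258), while the muscle markers Ckm, Acta1 and Myh4 were at most 0.222 FPKM in every library. The source of the Cox6a2 transcripts was not tested. Cox6a2 remained a small part of the pair with the widely expressed Cox6a1, between 2.11% and 3.11% in KO, 0.574% and 0.178% in WT 1 and WT 3, and 1.62% in WT 2.

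Cox7a1, the other muscle isoform tested, was low in every library, at 2.30, 7.00 and 3.98 FPKM in WT 1, WT 2 and WT 3 and 2.01, 1.54 and 2.09 in KO 1, KO 2 and KO 3. All KO values lay below all WT values, but the difference was not called (log2 fold change of -0.83 ± 0.36, adjusted p = 0.147, and -0.50 ± 0.23 without WT 2, adjusted p = 0.115). Cox6c, without such an isoform, rose by 1.32 ± 0.19 against WT 1 and WT 3 (adjusted p = 0.00269). Cox8b was listed at 0 in all WT libraries and had 6, 1 and 3 reads in KO 1, KO 2 and KO 3, too few to test.

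Of 17 tested complex V members, 13 rose against WT 1 and WT 3, where 26.8% of all genes tested were called higher. The catalytic core subunits Atp5a1 and Atp5b rose by 0.76 ± 0.12 and 0.73 ± 0.17 (adjusted p = 0.00419 and 0.016). Atp5g1, Atp5g2 and Atp5g3 encode the same mature c subunit of the rotor ring behind different import peptides, and they rose by 1.01 ± 0.20, 1.15 ± 0.19 and 1.05 ± 0.14 (adjusted p = 0.008, 0.0041 and 0.00232). With all libraries 0 of the 17 members were called by limma. Of the summed FPKM of the 3 c subunit genes, Atp5g1 gave between 4.80% and 5.64% in WT 1, WT 3 and KO. Atp5g2 gave between 49.9% and 57.0% in those libraries. In WT 2 Atp5g1 gave 16.4% and Atp5g2 53.5%. The epsilon subunit Atp5e was highest in WT 2, at 726 FPKM against 44.0 and 40.6 in WT 1 and WT 3 and between 48.4 and 56.1 in KO.

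The share of the nuclear sum that each complex took moved by a few percentage points at most between KO and WT 1 and WT 3. Complex II took 4.25% and 4.33% in WT 1 and WT 3, 1.48% in WT 2 and between 3.53% and 3.78% in KO. Complex IV took 30.0% and 29.5% in WT 1 and WT 3, 31.0% in WT 2 and between 27.9% and 29.0% in KO. Complex V took 25.7% and 25.4% in WT 1 and WT 3, 22.1% in WT 2 and between 26.5% and 28.4% in KO. In each of these complexes KO did not overlap WT 1 and WT 3, but for complex II WT 2 lay below every KO library. Complex I accessory subunits took between 21.6% and 22.7% in WT 1, WT 3 and KO and 29.1% in WT 2. The excess of WT 2 over WT 1 and WT 3 was larger in shorter members (Spearman's rho with gene length -0.49 over 90 nuclear members, and -0.23 over all genes tested, as a description). For the difference between KO and those WT libraries, rho was -0.21 over members and 0.01 over all genes tested. The share of members called was between 63.6% and 75.0% in each of 4 length classes, against 23.4% to 31.9% of all genes in the same classes.

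Several factors are known to bind promoters of these genes, among them NRF1, GABPA (an ETS factor) and YY1. Promoters in RefSeq (GRCm38.p6), from 250 bases before to 50 after the start, were found for 77 of 95 nuclear symbols, with 82 promoters in all. The NRF1 letters (GCGCA, then any base, then GCGC) stood on either strand in 24.4% of these promoters, 4.60% of all 32851 promoters and 6.38% of the 21263 promoters of protein-coding genes. CCGGAAG (ETS factors) stood in 21.95%, 8.86% and 11.6% of them, and AAGATGGC (YY1) in 13.4%, 2.75% and 3.05%. A match is a description of the letters only. The 4 stretches below are from members that rose together against WT 1 and WT 3 and show where the letters stand. Each ends at or just before the gene start, is written along the strand of the gene, and has the motif in capitals.
Uqcr11, chr10:80406831-80406941, minus strand: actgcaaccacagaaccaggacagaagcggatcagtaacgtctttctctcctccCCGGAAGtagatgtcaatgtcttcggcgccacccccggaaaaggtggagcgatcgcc
Ndufaf1, chr2:119662835-119662954, minus strand: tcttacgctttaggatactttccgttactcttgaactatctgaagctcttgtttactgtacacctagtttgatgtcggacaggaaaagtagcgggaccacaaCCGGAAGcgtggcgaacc
Ndufs5, chr4:123718203-123718306, minus strand: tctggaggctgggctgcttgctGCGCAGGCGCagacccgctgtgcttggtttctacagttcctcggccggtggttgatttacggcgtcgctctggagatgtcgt
Cox6a1, chr5:115348982-115349078, minus strand: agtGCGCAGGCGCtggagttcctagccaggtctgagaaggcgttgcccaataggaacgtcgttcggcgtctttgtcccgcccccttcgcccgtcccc

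The NRF1 letters were in promoters of 14 of 49 nuclear members that rose and 5 of 26 tested members that were not called, and the ETS letters in 12 and 6 of them. The transcripts of the factors themselves moved in both directions. Gabpa and its partner Gabpb1 rose against WT 1 and WT 3, by 0.65 ± 0.15 and 0.72 ± 0.20 (adjusted p = 0.0131 and 0.028), but were not called with all libraries (0.98 and 0.90, adjusted p = 0.0784 and 0.062). Gabpa measured 13.01, 5.73 and 11.8 FPKM in WT 1, WT 2 and WT 3 and 19.4, 22.9 and 18.1 in KO 1, KO 2 and KO 3, so that every KO library was above every WT library. Myc, Hif1a, Yy1 and Nrf1 also rose without WT 2 (adjusted p between 0.0391 and 0.0475) and were not called with it (adjusted p between 0.0801 and 0.641).

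Esrra, a nuclear receptor that drives mitochondrial genes, fell. It measured 21.1, 25.6 and 21.0 FPKM in WT 1, WT 2 and WT 3 and 13.7, 12.6 and 12.97 in KO 1, KO 2 and KO 3, with no overlap (log2 fold change of -0.74 ± 0.21 with all libraries, adjusted p = 0.0466). The coactivators Ppargc1b and Pprc1 fell against WT 1 and WT 3, by 1.27 and 0.93 on the log2 scale (adjusted p = 0.00386 and 0.0116), and were not called with WT 2 (adjusted p = 0.0582 and 0.243). Ppargc1a was at most 0.206 FPKM and was not tested. Sp1 and Gabpb2 were not called either way, with log2 fold changes without WT 2 of 0.15 and -0.04.

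The 13 mitochondrial members together outweighed the nuclear members per length in all libraries but WT 2. Their summed FPKM was 10829, 7446 and 12635 in WT 1, WT 2 and WT 3, and 12258, 14845 and 12773 in KO 1, KO 2 and KO 3. On average KO was thus 1.13 times the mean of WT 1 and WT 3. With all libraries 0 of the 13 were called. The ratio of the mitochondrial to the nuclear sum, from which any scaling of a whole library cancels, was 3.56, 0.469 and 4.55 in WT 1, WT 2 and WT 3, and 2.89, 3.005 and 2.68 in KO 1, KO 2 and KO 3. The KO libraries were close to each other (SD 0.083 on the log2 scale), below WT 1 and WT 3 and above WT 2. The mean log2 difference was 0.54 with WT 2 and -0.49 without it, so its direction depends on that library.

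**Figure D4:**
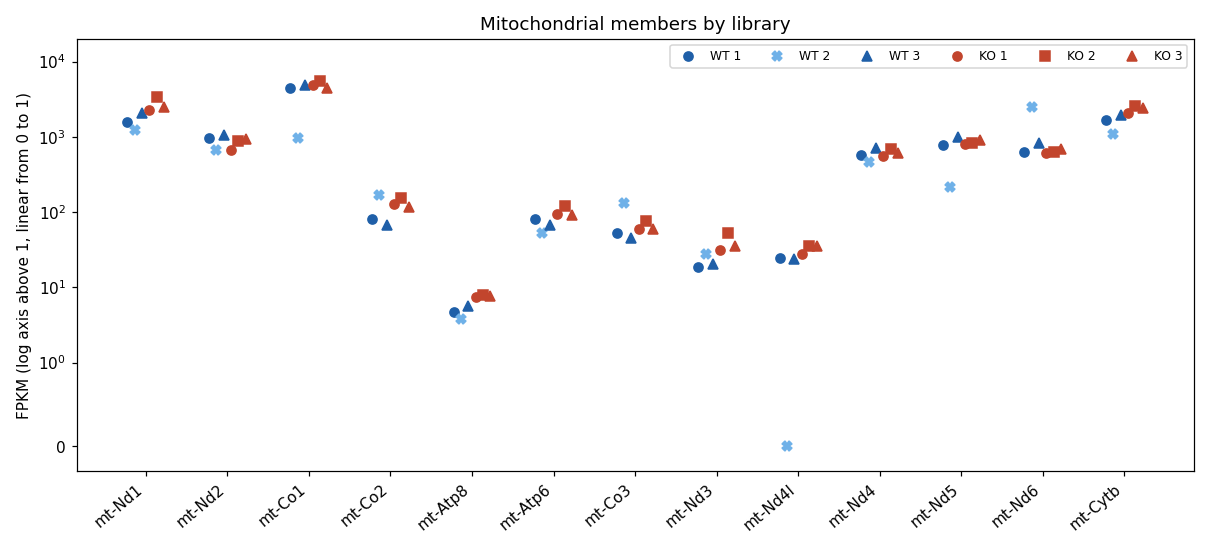
FPKM of each mitochondrial member in each library (log axis above 1, linear from 0 to 1), one symbol per library, in the order of the genome. In WT 2 mt-Co1 is at 962 and mt-Nd4l at 0, both below all other libraries, and mt-Nd6 at 2456 is above them.

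WT 2 also had another pattern among the mitochondrial genes. It was lowest for 9 and highest for 3 of the 13, against 37.5% and 30.2% of all genes tested. mt-Co1, the catalytic subunit of complex IV, measured 4411, 962 and 4818 FPKM in WT 1, WT 2 and WT 3 and 4905, 5432 and 4385 in KO 1, KO 2 and KO 3, so that without WT 2 the groups overlapped. mt-Nd6, the protein gene of the light strand, was at 619, 2456 and 824 in WT and 612, 634 and 691 in KO. Its ratio to mt-Nd5, which it overlaps on the other strand, was 11.4 in WT 2 and between 0.757 and 0.838 in the rest. The use of strand in counting is not given in the sources used here, so reads of overlapping genes on opposite strands cannot be assigned with certainty.

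Compared with WT 1 and WT 3, 3 of the 13 mitochondrial members were called higher, against 26.8% of all genes tested. mt-Co2, the copper-binding subunit of complex IV, measured 81.1, 168 and 66.9 FPKM in WT 1, WT 2 and WT 3 and 128, 154 and 117 in KO 1, KO 2 and KO 3 (log2 fold change without WT 2 of 0.84 ± 0.17, adjusted p = 0.00932). mt-Nd3, of complex I, measured 18.4, 27.4 and 20.4 in WT and 31.0, 52.6 and 35.9 in KO (0.97 ± 0.23, adjusted p = 0.0167). mt-Atp8, of complex V, measured 4.76, 3.75 and 5.69 in WT and 7.37, 7.78 and 7.61 in KO (0.47 ± 0.14, adjusted p = 0.0357). Those values rest on few reads, 15, 9 and 18 in WT 1, WT 2 and WT 3 and 28, 25 and 25 in KO 1, KO 2 and KO 3. Every KO library was above every WT library for 6 of the 13, against 26.2% of all genes tested. The 6 include mt-Nd3, mt-Atp8, mt-Nd1 and mt-Cytb. Among the abundant members, mt-Nd1 was at 0.56 ± 0.28 and mt-Cytb at 0.39 ± 0.23 (adjusted p = 0.138 and 0.192). Without WT 2 the sign was negative for 4 of the 13: mt-Nd2 (-0.29 ± 0.21), mt-Nd6 (-0.15 ± 0.19), mt-Nd5 (-0.05 ± 0.19) and mt-Nd4 (-0.04 ± 0.19). These were not called (limma adjusted p between 0.293 and 0.876). For mt-Nd2 all KO libraries lay below both WT 1 and WT 3.

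The levels of 7 mitochondrial members are uncertain, to differing degrees, because the nuclear genome holds near-identical copies of all or part of them. These are unprocessed pseudogenes next to each other on the minus strand of chromosome 1, chr1:24611535-24616197. In GENCODE M21 the copies of mt-Co2, mt-Co3, mt-Atp6, mt-Nd4l and part of mt-Nd4 were identical to the mitochondrial transcript over 681, 783, 678, 294 and 876 aligned bases. The first 60 bases of mt-Co2 (chrMT:7013-7072, plus strand) are the same letters in its copy Gm28661, which is shown because a read that lies wholly inside them cannot tell the genes apart.
mt-Co2 and Gm28661: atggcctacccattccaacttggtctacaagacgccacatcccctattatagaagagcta
The copies of mt-Nd3 and mt-Co1 each differed by 1 base, over 345 and 483 aligned bases. That of mt-Co1 covers only bases 1063 to 1545 of the gene. Counting from 1 at the first base of the mitochondrial transcript, and giving the mitochondrial base first, these are T3C in Gm28438 and A1066T in Gm29216, in capitals here.
mt-Nd3, chrMT:9459-9486, plus strand: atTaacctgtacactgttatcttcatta
Gm28438: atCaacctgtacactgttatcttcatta
mt-Co1, chrMT:6390-6418, plus strand: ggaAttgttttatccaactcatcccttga
Gm29216: ggaTttgttttatccaactcatcccttga

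Reads were divided between these pairs. Of the reads of mt-Co2 and Gm28661 together, the mitochondrial gene was given 40.04%, 19.8% and 32.6% in WT 1, WT 2 and WT 3, and 40.8%, 41.0% and 44.6% in KO 1, KO 2 and KO 3. For mt-Nd3 and Gm28438 the share was 43.8%, 13.1% and 37.3% in WT and 49.3%, 46.2% and 43.8% in KO. For mt-Co1 and mt-Nd4, whose copies cover only part of the gene, it was between 97.1% and 98.9% outside WT 2. In WT 2 it was 74.7% for mt-Co1 and 98.9% for mt-Nd4. WT 2 had the lowest share in each pair except mt-Nd4 with Gm28439, and mt-Nd4l was given 0 reads there while its copy Gm10222 had 17. Without WT 2 the copies Gm28661 and Gm28438 had log2 fold changes of 0.48 and 0.64 (adjusted p = 0.0966 and 0.125), in the same direction as their mitochondrial genes. mt-Atp8 has no annotated copy of its own but shares bases with mt-Atp6.

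**Figure D5:**
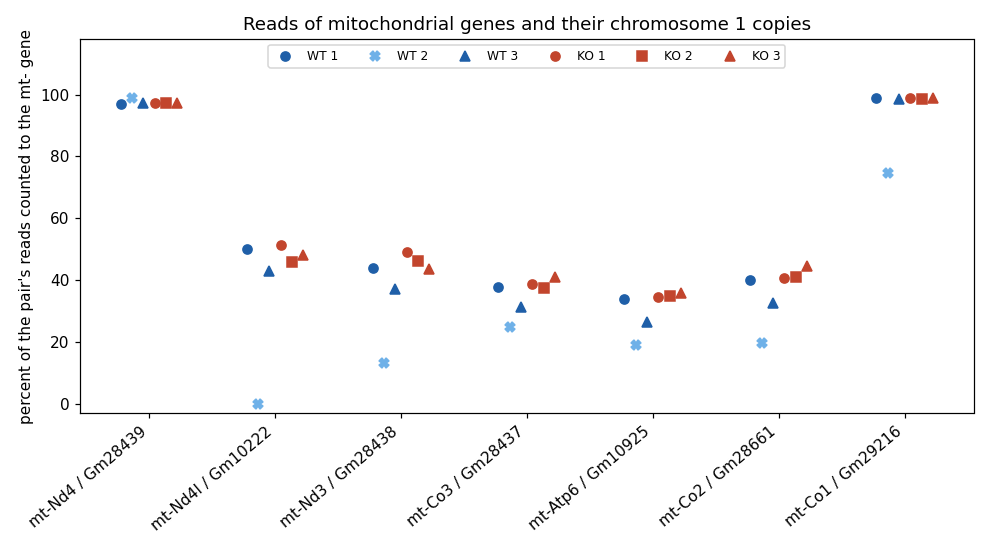
Percent of the reads of each mitochondrial gene and its chromosome 1 copy that were counted to the mitochondrial gene, by library, one symbol per library. For mt-Co2 the share is 19.8% in WT 2 and between 32.6% and 44.6% elsewhere.

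Genes that maintain and express mitochondrial DNA, and those around the chain, were read from the same fit. Of 16 genes of mitochondrial DNA replication and transcription, 3 rose and 2 fell with all libraries, and 7 rose and 3 fell without WT 2. The shares over all genes tested were 13.1% and 13.3% with all libraries and 26.8% and 25.3% without WT 2, and they stand beside each of the lists that follow. Tefm, the mitochondrial transcription elongation factor, measured 6.07, 5.04 and 9.12 FPKM in WT 1, WT 2 and WT 3 and 19.4, 23.2 and 23.3 in KO 1, KO 2 and KO 3, with no overlap (log2 fold change of 1.60 ± 0.27, adjusted p = 0.00709). Mterf2 also rose (1.49 ± 0.22, adjusted p = 0.00402), whereas Polg2, the accessory subunit of the mitochondrial DNA polymerase, and the topoisomerase Top1mt fell, by 0.89 and 1.32 on the log2 scale.

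Of 77 tested mitochondrial ribosomal proteins, which translate the 13 mitochondrial messages, 0 were called with all libraries (limma; 45 rose and 3 fell without WT 2, with a median of 0.59). Of 18 citric acid cycle genes, 2 rose and 1 fell with all libraries and 9 rose and 1 fell without WT 2. Ogdh fell by 0.87 on the log2 scale.

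Among 37 tested assembly factors outside the name rule, 4 rose and 0 fell with all libraries, and 13 rose and 1 fell without WT 2. Lyrm7, which helps to insert the Rieske protein into complex III, measured 0.738, 1.32 and 0.969 FPKM in WT 1, WT 2 and WT 3 and 5.81, 5.93 and 6.56 in KO 1, KO 2 and KO 3, and its log2 fold change was 1.83 ± 0.22 (adjusted p = 0.00212). Of 10 carriers of the mitochondrial membranes 1 rose with all libraries, and 3 rose and 2 fell without WT 2. The 1 was the outer membrane channel Vdac1, at 31.4, 28.0 and 27.5 FPKM in WT and 95.2, 99.0 and 112 in KO (1.78 ± 0.23, adjusted p = 0.00254). Of 16 genes that make or use coenzyme Q or make haem for the chain, 1 rose with all libraries (Cox15, which is also among the 4 assembly factors) and 4 without WT 2. Of 14 genes of mitochondrial RNA processing 1 rose with all libraries, Grsf1 (1.16 ± 0.32, adjusted p = 0.0386), and 3 without WT 2. Tefm, Mterf2, Polg2, Top1mt, Ogdh, Lyrm7, Vdac1 and Grsf1 were called in the same direction without WT 2.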

How the data were processed

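Per the labels, total bone marrow RNA was sequenced in 3 WT and 3 KO libraries. The submitters' processing notes name HISAT2 (2.0.5), featureCounts (1.5.0-p3) and the build GRCm38 (mm10); the use of strand is not given in the sources used here. The authors deposited FPKM per gene, with gene lengths. FPKM times length was a whole multiple of 1 read in 100% of values above 0 (tolerance 0.01 reads), so reads were recovered. Between 13015823 and 18235095 reads per library limit precision for counting error only.

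Genes with FPKM of at least 1 in at least 3 libraries were tested on log2(FPKM + 1), a scale that understates changes of low genes, with limma 3.58.1 (eBayes with trend, two-sided) in R 4.3.3, at a Benjamini-Hochberg adjusted p of 0.05. The study's methods name a count model, which was not used because the deposited unit is FPKM. Exact permutation of 3 against 3 libraries cannot reach 0.05. The tables, alignments and plots were made in Python 3.11.15 with Matplotlib 3.10.9, Biopython 1.88, pandas 2.3.3 and NumPy 2.4.6, and the fit was tested on simulated data. Members and lists were chosen with earlier results of these data known. Named members were the mitochondrial genes, Sdha to Sdhd, Cyc1, Cycs, the isoforms and, in each other class, the 3 smallest p-values and the 2 lowest and 2 highest fold changes; in lists, the 2 smallest p-values in each direction, and all regulators. A named gene of the citric acid cycle list is not reported here. Alternatives were other pseudocounts, filters, scalings, weights, a replicate block, voom on recovered reads and leaving out each library.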

Additional observations from a re-analysis of the deposited data

How the results depend on the processing

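With all 6 libraries the count of members called higher was 1. It was 0 without a filter on low values, 0 at a mean FPKM of at least 5, 4 after removal of a gene length trend, 13 after quantile normalization, 23 after rescaling to TPM and 67 with array weights, where 1 (Ndufaf5) was lower. Rescaling to TPM moved the median of all genes to 0.86 (from 0.09), and 67.8% of all its calls were higher (49.6% before). With a replicate block the count was 0. Deviations of same-numbered libraries from their group means correlated at 0.10, 0.10 and -0.15. The WT mean includes the outlying WT 2, so these values cannot show whether the replicate numbers mark pairs. Leaving out 1 library gave between 0 and 65, with 65 only without WT 2, whose array weight was 0.0509, the lowest of the 6. The other pseudocounts, median-of-ratios scaling, eBayes without the trend and voom each gave 1 (voom on recovered reads called 1542 of all genes higher and 1817 lower). The cause was not tested.

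The difference in the mitochondrial to nuclear ratio was between -0.49 and 1.14 when 1 library was left out, negative only without WT 2. It kept its direction on mean log2 values, without mt-Co1, on recovered reads and, in 2 alternatives chosen after seeing the data, with the chromosome 1 copies added (0.47) or over the 6 members without a copy (0.43).

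Against WT 1 and WT 3, in alternatives chosen after seeing the data, removal of the length trend gave 73 members higher, TPM 86 and median-of-ratios scaling 62, with 0 lower in each. Leaving out 1 further library gave between 39 and 64 higher, and between 0 and 1 lower (Cox7a1, without WT 1). With 1 WT library left, that library is assumed to vary like the KO libraries.

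Of 62 named members, the sign differed from that with all libraries for 18 with array weights, 15 after quantile normalization, 20 after rescaling to TPM, 7 after removal of a gene length trend and 22 without WT 2. Those called under such a setting were, with array weights, Ndufs3 (0.42), Sdhb (0.62), Cox6a1 (0.59), Cox6b1 (0.61), Cox6b2 (0.78), Cox7a2 (0.74), Cox7a2l (0.57; 0.94 after quantile normalization) and Atp5g1 (1.05). Leaving out 1 library gave, for those called without WT 2, ranges of -0.63 to 0.39 for Ndufs3, -0.44 to 0.69 for Sdhb, -1.01 to 0.43 for Cox4i1, -0.97 to 0.72 for Cox6a1, -0.85 to 0.73 for Cox6b1, -0.88 to 1.05 for Cox6b2, -0.63 to 0.89 for Cox7a2, -0.47 to 0.51 for Cox7a2l and -0.54 to 1.01 for Atp5g1, each highest without WT 2.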
